A study of Mus musculus with 4 samples.

Results

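Growth cone genes were followed in single nuclei of the mouse superior colliculus, the midbrain centre that receives retinal and other sensory input. The 8 genes were Gap43, Basp1, Marcks and the 5 genes of the collapsin response mediator protein (CRMP) family, Dpysl2, Dpysl3, Dpysl4, Dpysl5 and Crmp1. They were chosen by gene symbol among the 31053 genes of the deposited matrix, and all 8 were found. The colliculus of C57BL/6J mice was taken on embryonic day 19 (E19) or on postnatal day 4, 8 or 21 (P4, P8, P21), and the labels name no treatment; the number and sex of the animals are not given in the sources used here. Each of the 4 stages was 1 library made from tissue of several animals, so the pooling hides differences between animals, and each difference between stages is one between 2 libraries with no replicate check. No test between stages was made. All intervals below are 95% intervals that cover counting error only.

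A growth cone is the motile tip of an extending axon, where actin filaments and microtubules are remodelled in response to guidance cues. GAP43, BASP1 and MARCKS are attached to the inner face of the membrane, are substrates of protein kinase C, and bind calmodulin, membrane phosphoinositides or actin. The CRMPs are cytosolic phosphoproteins that bind tubulin or actin and relay the collapse signal of semaphorin 3A. In the colliculus, retinal axons arrive and arborise around birth, but nuclei report only the RNA of cells whose nuclei lie in the tissue, not that of incoming axons.

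RefSeq promoter entries for GRCm38 were found for 3 of the 8 genes. The 250 bases before the start of Basp1 and of Dpysl5 are shown because both genes were at least 2-fold lower at P21 than at P8 in excitatory neurons and their entries begin at the annotated gene start. The Basp1 window is chr15:25413765-25414014, minus strand, and the Dpysl5 window chr5:30711314-30711563, plus strand. Both are written 5′ to 3′, with GC boxes (GGGCGG on either strand) and E-boxes (CANNTG) in capitals.
Basp1: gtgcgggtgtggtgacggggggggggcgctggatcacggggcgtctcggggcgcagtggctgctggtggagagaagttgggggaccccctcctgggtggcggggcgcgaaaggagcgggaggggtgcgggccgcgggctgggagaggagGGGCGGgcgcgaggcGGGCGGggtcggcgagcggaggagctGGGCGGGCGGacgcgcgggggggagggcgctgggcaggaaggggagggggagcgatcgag
Dpysl5: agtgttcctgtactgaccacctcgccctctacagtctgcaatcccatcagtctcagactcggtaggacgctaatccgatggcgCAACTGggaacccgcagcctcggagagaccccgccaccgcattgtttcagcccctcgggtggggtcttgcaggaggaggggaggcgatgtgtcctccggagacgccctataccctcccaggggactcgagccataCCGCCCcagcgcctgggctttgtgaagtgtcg
The Basp1 window held 4 GC boxes, the last 2 overlapping each other, and no E-box, with a GC content of 78.8%. The Dpysl5 window held 1 GC box, read on the opposite strand, and 1 E-box, with a GC content of 62.8%. Across 32841 promoter windows of the same length, 32.7% held a GC box and 66.2% an E-box, and the median GC content was 52.4%. None of the 3 genes' windows held TATAAA on either strand, a motif found in 12.4% of all windows. The 2 entries for Crmp1 held 5 and 2 GC boxes. These matches describe letters in a window and do not mark a bound site.

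Dpysl5 and Crmp1 lie on the same chromosome and the other 6 genes each on another, in GRCm38 coordinates of GENCODE M21. Gap43 (ENSMUSG00000047261) spans chr16:42248442-42340651 on the minus strand. Basp1 (ENSMUSG00000045763) spans chr15:25363277-25413764, minus strand, and Marcks (ENSMUSG00000069662) chr10:37133375-37138920, minus strand. Of the CRMP genes, Dpysl2 (ENSMUSG00000022048) spans chr14:66802864-66868688 and Dpysl3 (ENSMUSG00000024501) chr18:43320984-43438286, both on the minus strand. Dpysl4 (ENSMUSG00000025478) spans chr7:139086001-139102704, Dpysl5 (ENSMUSG00000029168) chr5:30711564-30799375 and Crmp1 (ENSMUSG00000029121) chr5:37241940-37292133, all on the plus strand. Reads from introns were counted, and introns make up 98.3% of Gap43 but 27.0% of Marcks. Mir6540 lies within Gap43 and Gm42764 within Dpysl5 on the same strand, and Evc overlaps Crmp1 on the opposite strand. How UMIs (unique molecular identifiers) were assigned in these overlaps was not checked.

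The libraries held 2249 to 2585 nuclei and 19277512 to 31325079 UMIs, and the median depth per nucleus was 6828 UMIs at E19 and 11745 at P21. Of 9715 distinct barcodes, 9 occurred in more than 1 library. The deposited annotation gave 9 classes and 35 subtypes, of which 13 were excitatory (EN) and 12 inhibitory (IN) neuron subtypes. How those names were made is not given in the sources used here, and differences between classes are given without a test. Inhibitory neurons were highest for 3 of 3 of their markers at every stage, and excitatory neurons for 1 or 2 of 2. At P8 the excitatory marker Slc17a6 stood at 182 CPM in excitatory neurons and at 184 CPM in the 21 microglia nuclei, and Slc17a7 of the 2 excitatory markers was at most 5.17 CPM in any class. Astrocytes were highest for 3 or 4 of 5 markers, and the oligodendrocyte lineage for 7 or 8 of 8 at E19 and P4, 5 at P8 and 4 at P21. Nuclei labelled epithelial were highest for 0 of 3 choroid plexus markers at every stage, so that label is used only as a name. Levels are counts per 1000000 UMIs (CPM) of the summed nuclei of a class and library, and log2 ratios are of CPM with 5 added to both values.

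All 8 genes were lower at P21 than at E19 in both neuron classes. From E19 through P4 and P8 to P21, their summed level in excitatory neurons was 2744, 2100, 1474 and 807 CPM. In inhibitory neurons the sum was 2832, 2164, 1548 and 766 CPM. The sum was lower at each later stage in both classes, and the classes stayed close to each other. The genes differed in the size of the decline: in both classes Marcks, Basp1 and Dpysl3 kept at most 20.8% of the E19 level at P21, and Dpysl2 and Dpysl4 at least 50.6%.

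**Figure D1:**
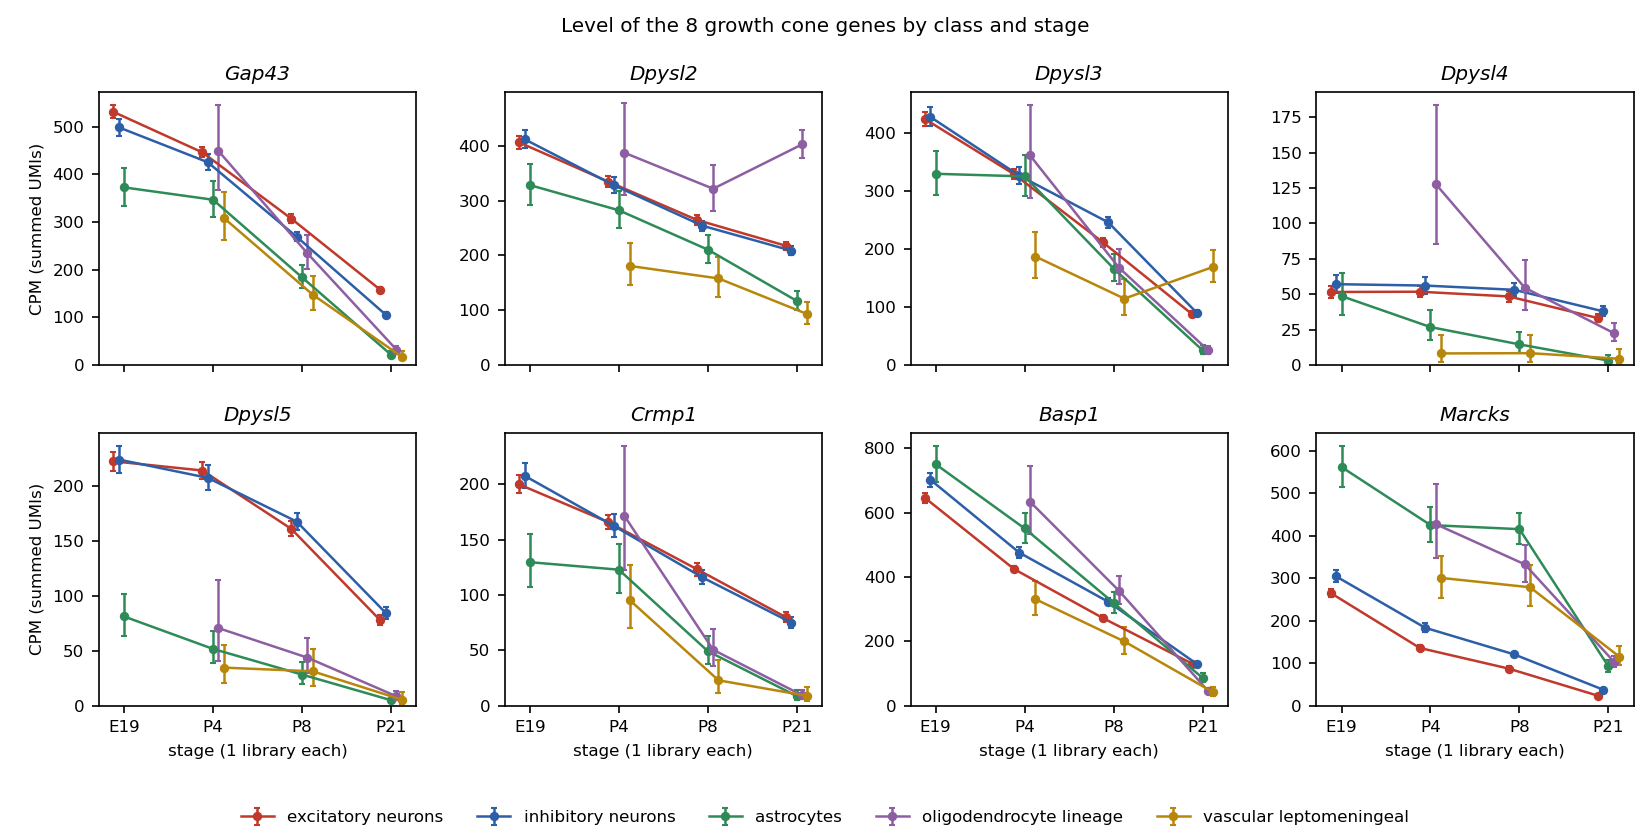
Level of each gene (CPM of summed UMIs, y axis from 0) by stage (x axis) in 5 classes with at least 50 nuclei at the stages drawn. Points are 1 library each and bars are 95% Poisson intervals; the neuron lines decline together, while Dpysl2 in the oligodendrocyte lineage and Dpysl3 in vascular leptomeningeal cells are higher at P21 than at P8.

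Among the membrane-attached substrates of protein kinase C, Gap43, which marks growing axons and later some presynaptic terminals, stood at 531, 446, 307 and 158 CPM in excitatory neurons over the 4 stages, E19 first. In inhibitory neurons it stood at 499, 425, 269 and 106 CPM. Both series were lower at each later stage, and the later steps were the larger on the log2 scale. The stages are unevenly spaced and P8 to P21 is the longest gap, so a larger step is not a faster decline. The log2 ratio of P21 to P8 was −0.94 (−1.01 to −0.87) in excitatory and −1.31 (−1.40 to −1.22) in inhibitory neurons.

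Basp1, which like MARCKS sequesters phosphoinositides at the membrane, stood at 646, 425, 272 and 131 CPM in excitatory neurons. Inhibitory neurons had 702, 475, 323 and 128 CPM. The decline was already under way between E19 and P4, with log2 ratios of −0.60 and −0.56, and the P21 levels of the 2 classes overlapped within counting error.

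Marcks, an actin cross-linker released from the membrane by protein kinase C, had the lowest log2 ratios of P21 to E19 of the 8 genes. Its level in excitatory neurons was 265, 136, 87.0 and 23.4 CPM, an 11.3-fold difference in CPM between the first and last stage. Inhibitory neurons had 304, 183, 121 and 37.5 CPM, an 8.10-fold difference. By P4 excitatory neurons retained 51.2% of their E19 level of Marcks, against 84% for Gap43. Of all genes with at least 20 CPM, 0.248% had a lower P21-to-E19 ratio than Marcks in excitatory neurons, and 0.461% in inhibitory neurons.

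Of the CRMP genes, Dpysl3 encodes CRMP4, which bundles actin. It stood at 424, 329, 211 and 87.6 CPM from E19 to P21 in excitatory neurons, and at 427, 326, 246 and 89 CPM in inhibitory neurons. The classes overlapped within counting error at E19, P4 and P21, whereas inhibitory neurons were 1.16-fold higher at P8. Dpysl2 encodes CRMP2, which binds tubulin dimers and promotes axon formation. Its levels were 406, 335, 265 and 217 CPM in excitatory and 412, 328, 254 and 209 CPM in inhibitory neurons. Of the E19 level of Dpysl2, 53.5% was left at P21 in excitatory neurons and 50.6% in inhibitory neurons.

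Crmp1, which encodes the family member CRMP1, stood at 200, 166, 123 and 79.8 CPM in excitatory neurons and at 208, 163, 116 and 74.9 CPM in inhibitory neurons. Dpysl5 encodes CRMP5, which forms heteromers with other CRMPs. It was nearly level between E19 and P4, at 222 and 214 CPM in excitatory neurons, and stood at 161 at P8 and 77.5 at P21. Inhibitory neurons had 224, 207, 167 and 84.3 CPM of Dpysl5, again with the largest step over the longest gap between stages, after P8. Dpysl4, encoding CRMP3, stood at 51.5, 51.7, 48.4 and 33.1 CPM in excitatory and 57, 56, 53.1 and 37.9 CPM in inhibitory neurons. The 3 earlier stages of Dpysl4 overlapped within counting error in both classes, and only P21 was lower.

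At least 2-fold lower levels at P21 than at P8 were found for 4 of the 8 genes in excitatory neurons (Dpysl3, Dpysl5, Basp1 and Marcks), where 3.2% of all 7117 genes with at least 20 CPM were. Basp1 at −1.03 and Dpysl5 at −1.0 lay on the threshold, and Gap43 at −0.94 just outside it. The count was 2 with median-of-ratios scaling, with 20 CPM added in place of 5 or with nuclei thinned to 2300 UMIs. In inhibitory neurons the 4 were Gap43, Dpysl3, Basp1 and Marcks, where 3.28% of all genes were, and Dpysl5 at −0.95 lay just outside. No member reached 2-fold between E19 and P4 or between P4 and P8 in either class, where 0.701% and 0.832% of all genes did in excitatory and 0.582% and 0.382% in inhibitory neurons. Between E19 and P21, 6 of 8 were at least 2-fold lower in excitatory neurons (10.7% of all genes) and 6 of 8 in inhibitory neurons (11.3%). The exceptions in both classes were Dpysl2, at −0.89 and −0.97, and Dpysl4, at −0.57 and −0.53. The median log2 ratio of P21 to P8 over the 8 genes was −0.97 in excitatory and −1.12 in inhibitory neurons, beside 0.020 and 0.037 over all genes tested.

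**Figure D2:**
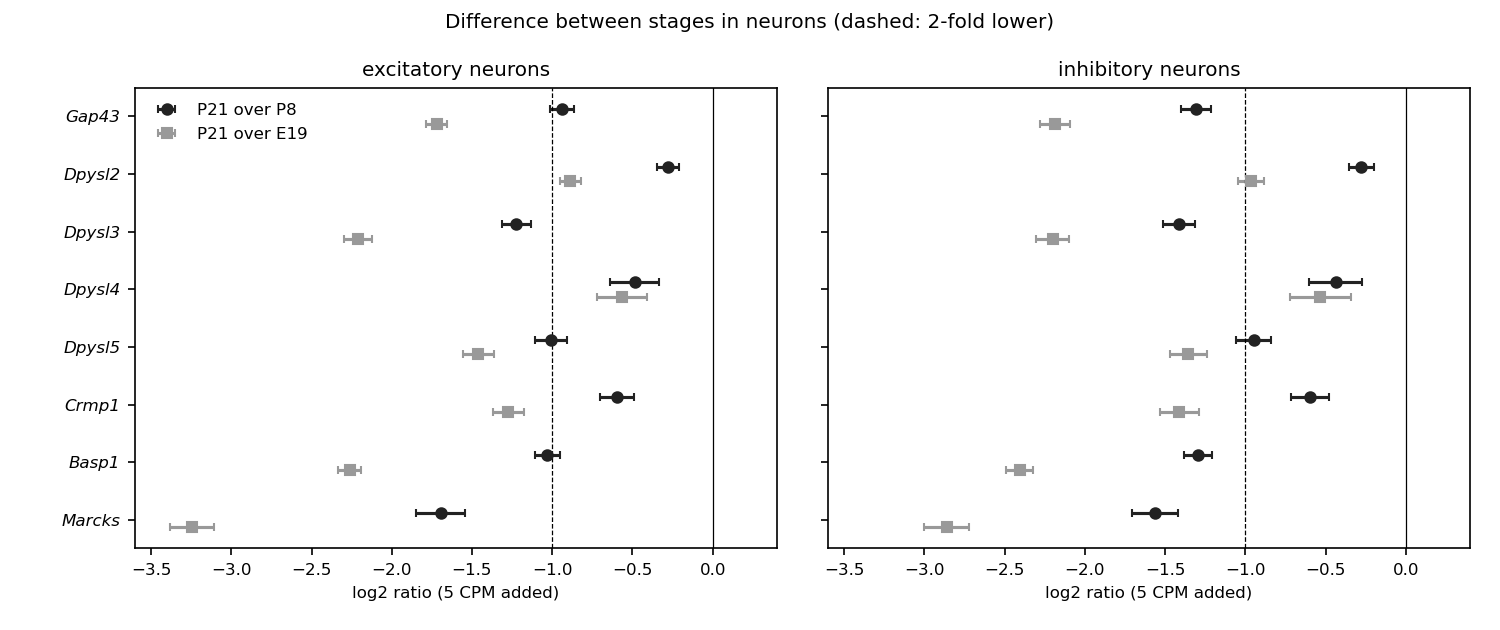
Log2 ratios (x axis, 5 CPM added) of P21 over P8 (circles) and P21 over E19 (squares) for each gene in excitatory (left) and inhibitory (right) neurons, with 95% intervals for counting error. The dashed line marks a 2-fold lower level; Dpysl2 and Dpysl4 lie right of it in both comparisons and Marcks lies farthest left.

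Shares of nuclei with a UMI were lower at P21 as well. After thinning every nucleus to 2300 UMIs, 70.4% (67.9 to 72.8%) of excitatory nuclei had a Gap43 UMI at E19 and 29.0% (25.6 to 32.6%) at P21. For Marcks the shares were 45.9% and 6.74%. Without thinning they were 95.9% and 87.2% for Gap43 and 88.1% and 35.9% for Marcks, at median depths of 8051.5 and 19601 UMIs. At least 1 of the 8 genes was detected in 99.9% of thinned excitatory nuclei at E19 and in 84.8% at P21. Whether free RNA adds to such shares was not tested. Of thinned astrocyte nuclei at P21, with a median depth of 5525 UMIs before thinning, 3.14% had a Gap43 UMI. At E19 the thinned share of astrocytes was 60.2% (53.0 to 67.1%), below the 70.4% of excitatory neurons. A share of that size gives no low background for Gap43. Astrocytes also give no such background for Marcks, with a share of 18.5% at P21, above that of excitatory neurons.

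The transmitter classes differed less than the stages. No member differed 2-fold between excitatory and inhibitory neurons in any library. Few of all genes did, so this count does not set the members apart. At E19, 1.07% of all genes were at least 2-fold higher in excitatory and 0.818% in inhibitory neurons, and at P4 0.984% and 0.795%. At P8 the shares were 1.93% and 1.66%, and at P21 1.69% and 1.37%. Marcks was higher in inhibitory neurons in 4 of 4 libraries, by 1.15-fold at E19, 1.35-fold at P4, 1.39-fold at P8 and 1.60-fold at P21. Gap43 was higher in excitatory neurons in 4 of 4 libraries, by 1.07-fold, 1.05-fold, 1.14-fold and 1.49-fold. Basp1 was higher in inhibitory neurons at E19, P4 and P8, by 1.09-fold to 1.19-fold, and the classes overlapped at P21. The other 5 genes differed by at most 1.16-fold at every stage.

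Compared per kilobase of gene, the order of the members changed with age. In excitatory neurons at E19, Marcks led with 47.7 CPM per kilobase, followed by Basp1 with 12.8 and Dpysl2 with 6.17. At P21 Marcks still led with 4.22 CPM per kilobase, Dpysl2 came next with 3.30, and Basp1 had 2.59. Dpysl5 had 2.53 CPM per kilobase at E19 and 0.883 at P21, and Dpysl3 3.61 and 0.747. Per kilobase of exon instead, the order at E19 was Gap43 at 349, Basp1 at 321, Dpysl2 at 89.8 and Marcks at 65.4 CPM. The order thus depended on the length used, and whether UMI counts of 3′ libraries scale with either length was not tested.

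Neuron subtypes with at least 30 nuclei at both stages were then compared. Between P8 and P21, Gap43, Dpysl2, Dpysl3, Dpysl5, Crmp1, Basp1 and Marcks were lower in 21 of 21 subtypes, and Dpysl4 in 20 of 21. The difference exceeded counting error in all 21 subtypes for Gap43, Dpysl3, Basp1 and Marcks, in 20 for Dpysl5, 16 for Crmp1, 14 for Dpysl2 and 8 for Dpysl4. Marcks was at least 2-fold lower in 21 of the 21 subtypes, Dpysl3 in 20, Basp1 in 17, Gap43 in 15 and Dpysl5 in 12. The subtypes share their libraries and are not replicates of a stage.

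**Figure D3:**
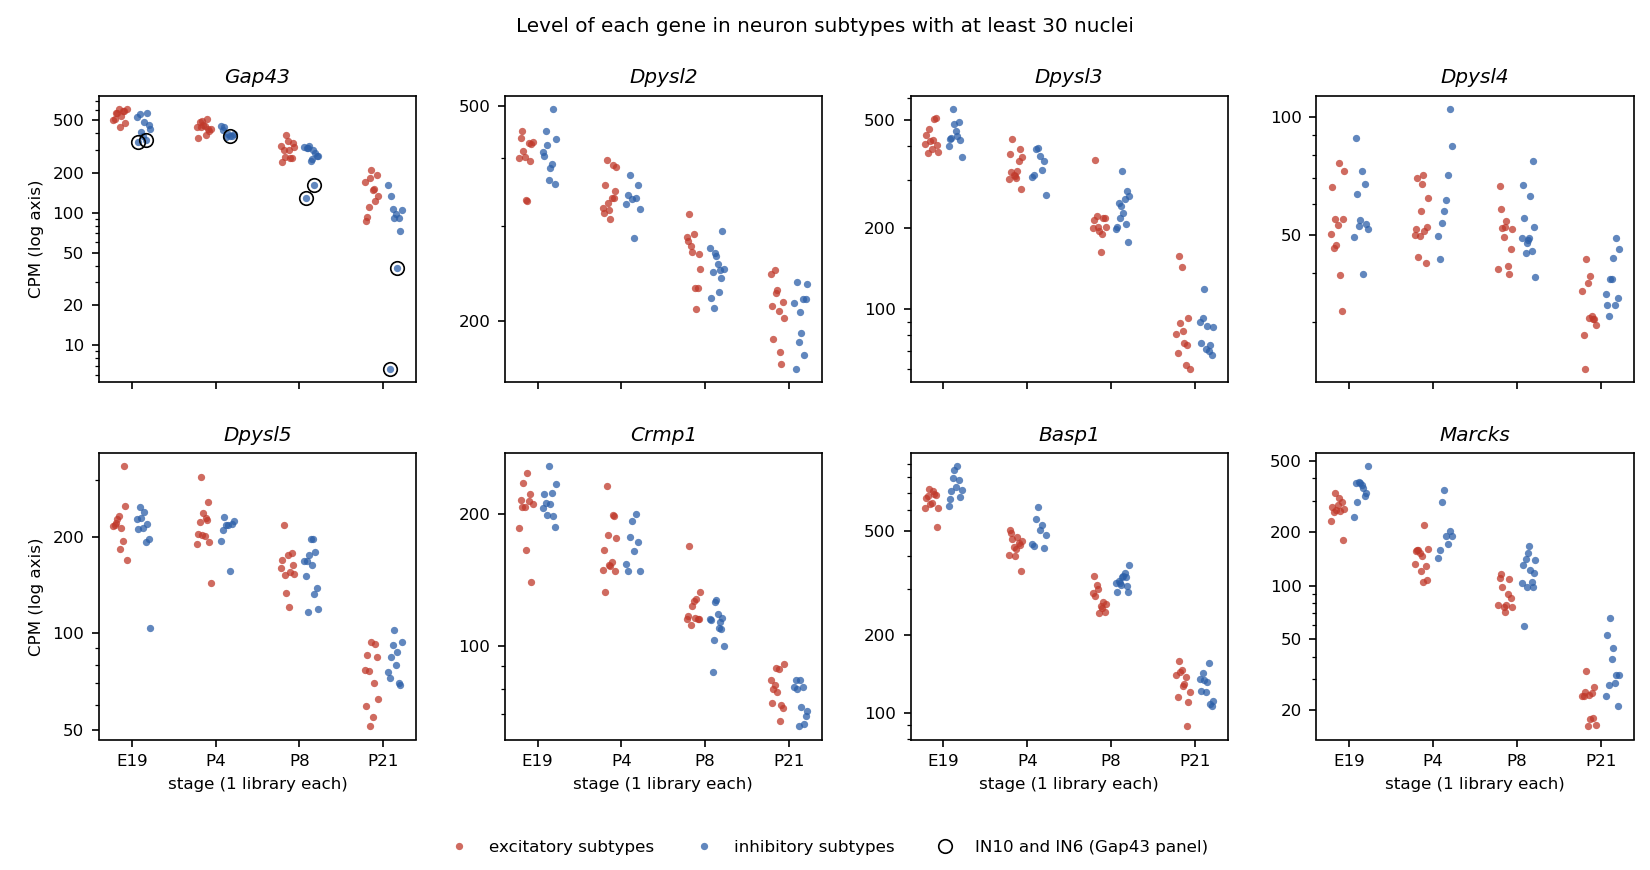
Level of each gene (CPM, log axis) in neuron subtypes with at least 30 nuclei, by stage; each point is 1 subtype of 1 library, red for excitatory and blue for inhibitory. In the Gap43 panel IN10 and IN6 are circled: at P21 they lie at 6.63 and 38.1 CPM, below all other subtypes drawn.

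The widest range among subtypes was that of Gap43 at P21, 31.7-fold, with IN10 lowest. Over the 4 stages IN10 held 344, 371 (25 nuclei), 129 and 6.63 (1.37 to 19.4) CPM of Gap43. The P21 level was 3 UMIs among 452628, found in 2 of 36 nuclei. The other inhibitory neurons had 110 CPM at P21, 16.5-fold (5.65-fold to 80.4-fold) more than IN10, and 63.9% of their nuclei had a Gap43 UMI. The corresponding ratio was 1.46-fold at E19, 1.15-fold at P4 and 2.14-fold (1.71-fold to 2.71-fold) at P8. At P21 the level in IN10 was therefore not above that of astrocytes of the same library, where Gap43 stood at 21.5 CPM (15 to 29.9) and 10.8% of nuclei had a UMI at a median depth of 5525 UMIs, against 12088 in IN10.

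IN10 nuclei did not lack the other members at P21. They held 84 CPM of Crmp1, 122 of Basp1, 163 of Dpysl2 and 53.0 of Marcks, the second highest Marcks level of the 21 subtypes. Their inhibitory markers were present, with 258 CPM of Gad1, 358 of Gad2 and 88.4 of Slc32a1 beside 17.7 of the excitatory marker Slc17a6. Between P8 and P21, 4 of 8 members were at least 2-fold lower in IN10, where 7.87% of all genes were, and 0.0407% of all genes had a lower ratio than Gap43. IN6 was the next lowest, with 358, 380, 163 and 38.1 CPM of Gap43 from E19 to P21. The other inhibitory neurons exceeded IN6 2.88-fold (1.92-fold to 4.51-fold) at P21 and 1.71-fold at P8. The highest Gap43 levels at P21 were 210 CPM in EN3 and 195 in EN8. Among inhibitory subtypes IN1 was highest, at 162 CPM. Leaving out IN10 and IN6, which was decided after their values were seen, lowered the log2 ratio of excitatory over inhibitory neurons at P21 from 0.56 to 0.45.

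Other members had their own high and low subtypes. Marcks was highest in the inhibitory subtypes IN9 at E19 (468 CPM), IN4 at P4 (344) and P8 (168) and IN3 at P21 (65.7, 55.0 to 78.0). Its lowest subtypes at P21 were the excitatory EN2 at 16.2 and EN9 at 16.5 CPM. Dpysl3 was highest in EN12 at P4, P8 and P21, at 425, 354 and 158 CPM, beside subtype medians of 325, 217 and 81.2. EN2 came next at P21 with 143 CPM, the smallest difference from P8 of the 21 subtypes. EN12 was also highest at P4 and P8 for Dpysl5 (306 and 217 CPM) and for Crmp1 (231 and 169 CPM), and at P21 it had 85.7 and 80.0 CPM, beside subtype medians of 76.8 and 80.0.

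Dpysl5 varied most at E19. EN7, a subtype with 33 nuclei at E19, 191 at P4 and 1 at each later stage, had 331 CPM (270 to 401), and IN9 had 104 CPM (59.4 to 169). The IN9 value rested on 16 UMIs, and at P21 IN9 stood at 94.3 CPM, among the higher subtypes, with an interval that overlapped that of E19. Leaving EN7 out changed neither count of members at least 2-fold lower at P21 in excitatory neurons. With 1 EN7 nucleus at P8 and 1 at P21, it could hardly have changed the count from P8 to P21. Dpysl2 and Crmp1 were the most even at P21, with highest-over-lowest ratios of 1.52-fold and 1.38-fold among 21 subtypes.

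Across subtypes of the same stage the pairs of members went both ways, with Pearson correlations from −0.52 to 0.75. Over the 28 pairs of genes the median was −0.02, 0.14, 0.09 and 0.05 from the first stage to the last, over 20 to 23 subtypes. The pair with the highest median over the 4 stages was Basp1 and Marcks (0.65), and the lowest was Gap43 and Marcks (−0.48, below 0 at 4 of 4 stages). These correlations are descriptions; the subtypes of a stage share 1 library, and their nuclei differ in number and depth.

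Over all 85 profiles of a neuron subtype at a stage, the genes most like each member were ranked by the Pearson correlation of log2 levels, among 6984 genes. These profiles share 4 libraries, so a shared course over the stages raises the correlation. Left out of the ranking were the members themselves, mitochondrial, ribosomal protein and haemoglobin genes, Xist, Tsix and Y-linked genes. Stmn1, which binds free tubulin, was among the 3 nearest genes of Dpysl3 (0.96), Crmp1 (0.95), Basp1 (0.98) and Marcks (0.97). Tmsb10, an actin monomer binding peptide, was near Basp1 (0.98) and Marcks (0.97), and the actin genes Actb and Actg1 were near Crmp1 (both 0.93). Gap43 was nearest to Rac3 (0.88), Dclk1 (0.88) and Stmn2 (0.87), the gene of another membrane-attached growth cone protein. Dpysl2 was nearest to Uchl1 (0.92), Reep5 (0.90) and Actb (0.90), and Dpysl5 to Atat1 (0.91), the tubulin acetyltransferase, Scn3b and Fxyd6. Tubb2b (0.96) and Nnat (0.96) were near Dpysl3, Actg1 (0.98) was near Basp1 and Eef1a1 (0.97) near Marcks. Dpysl4 had the weakest neighbours, Hip1, Rapgef1 and Zfp57, all at 0.71 or 0.72.

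The neighbours differed in how much was left at P21. Tubb2b stood at 704 CPM at E19 and 4.998 at P21 in excitatory neurons, and Tmsb10 at 348 and 11.6. Dclk1, the doublecortin-like kinase near Gap43, stood at 1105 and 636 CPM.

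Partners of these proteins were described as 3 lists. Of 33 semaphorin and CRMP signalling partners, 29 reached 20 CPM in excitatory neurons, and 4 were at least 2-fold lower at P21 than at P8, none at least 2-fold higher, beside 3.2% and 2.15% of all genes. These were Nrp1, the semaphorin 3A receptor, Plxna3, L1cam and Cfl1. L1cam, an adhesion molecule that forms a complex with Nrp1, stood at 142, 142, 114 and 47.9 CPM from E19 to P21. Cfl1, the actin severing protein cofilin, stood at 148, 77.5, 49.7 and 20.1 CPM. Of the list's genes with the highest ratios, Numb, an endocytic adaptor, had 88.9 CPM at P8 and 129 at P21, and the kinase gene Pak1 122 CPM at both. The list's median log2 ratio was −0.23, beside 0.020 over all genes. In inhibitory neurons the same 4 genes of 28 were at least 2-fold lower, beside 3.28% of all genes.

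Of 29 calmodulin, protein kinase C and phosphoinositide partners, 26 reached 20 CPM in excitatory neurons, 2 were at least 2-fold lower (3.2% of all genes) and none at least 2-fold higher (2.15%), with a median of −0.07 beside 0.020. Marcksl1, the paralogue of Marcks, went from 108 CPM at E19 to 33.7 at P8 and 4.52 at P21. Camk2a, a calmodulin-dependent kinase of mature synapses, had 179 CPM at P8 and 318 at P21, and Pip5k1b, a phosphoinositide kinase, 62.8 and 117 CPM. In inhibitory neurons 3 of 26 were at least 2-fold lower, Marcksl1 and Pcp4 among them, and 1 higher (Camk2a), where 3.28% of all genes were lower and 2.62% higher.

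Of 42 listed symbols of other growth cone and axon growth genes, 41 were in the matrix and 35 reached 20 CPM in excitatory neurons. The list held Stmn2 also under its older name Scg10. There 6 were at least 2-fold lower (Stmn1, Tubb2a, Tubb2b, Vasp, Actb and Actg1), 2 were at least 2-fold higher (Cap2 and Nefm), where 3.2% of all genes were lower and 2.15% higher. The median was −0.53 beside 0.020. Tubb2b had 133 CPM at P8 and 4.998 at P21, and Tubb2a, another beta tubulin gene, 119 and 26.3. Cap2, an actin regulator, had 43.9 and 111 CPM, and Nefm, a neurofilament gene of mature axons, 10.5 and 47.2. In inhibitory neurons 7 of 35 were at least 2-fold lower and the same 2 higher, beside 3.28% and 2.62% of all genes.

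In astrocyte nuclei UMIs of all 8 genes were counted at E19, and few of most by P21. At E19 only Basp1 and Marcks were clear of the neuron markers in these nuclei, as described below. The summed level of the 8 genes in astrocytes was 2601, 2130, 1387 and 359 CPM over the 4 stages. Marcks stood at 561, 425, 415 and 92.3 CPM, above neurons of the same library at each stage. Basp1 stood at 750, 551, 319 and 86.1 CPM. Gap43 stood at 373, 347, 184 and 21.5 CPM. Its largest step in astrocytes, a log2 ratio of −2.83 (−3.28 to −2.39), came over the longest gap between stages, after P8. All 8 genes were at least 2-fold lower at P21 than at E19, where 18.2% of all genes were, and at P21 than at P8 this held for 6 of the 7 members with at least 20 CPM (7.36% of all genes), Dpysl2 being the exception at −0.82. Dpysl4 lay under that minimum, at 14.5 CPM and 3.08 CPM (5 UMIs).

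UMIs of neuron markers were also counted in nuclei of other classes. The 7 neuron markers with at least 20 CPM in neurons (Snap25, Rbfox3, Syt1, Slc17a6, Gad1, Gad2 and Slc32a1) stood in astrocytes at 9.20% to 62.6% of the neuron level at E19 and at 4.08% to 25.1% at P21. The members stood at 36.4% to 202% at E19 and at 6.11% to 312% at P21. At E19, Basp1 (113%) and Marcks (202%) lay above every marker with the counting error of both included. The highest marker there, Slc32a1, rested on 26 UMIs, with an upper bound of 91.8%, and the other 6 members were not clear of it. At P21 Dpysl2 (54.7%), Basp1 (66.4%) and Marcks (312%) were clear of every marker, the highest upper bound being 41.1%. For Gap43 (16%), Dpysl4, Dpysl5 and Crmp1 the P21 level in astrocytes lay within the marker range. None of the 7 markers was at 0 in astrocytes, and the part of neuron RNA in these values was not tested.

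**Figure D4:**
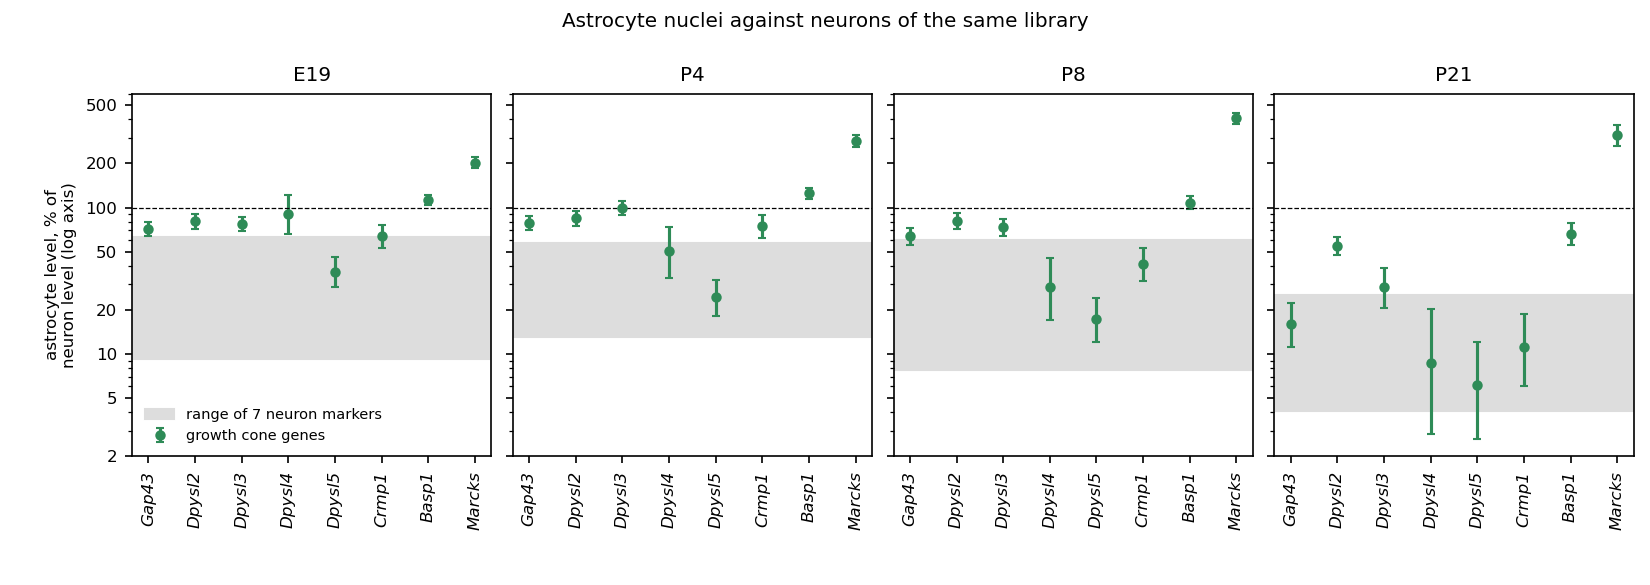
Astrocyte level as a percent of the neuron level of the same library (log axis) for each gene, with 95% intervals for counting error, in 4 panels by stage; the grey band is the range of 7 neuron markers and the dashed line is equality. Marcks lies above equality at all 4 stages, while Gap43, Dpysl4, Dpysl5 and Crmp1 lie inside the band at P21.

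The astrocyte subtypes, singled out after their values were seen, differed at P21. Basp1 stood at 203 CPM in fibrous and 67.2 CPM in protoplasmic astrocytes at P21, a 3.02-fold difference (2.07-fold to 4.34-fold). At E19, P4 and P8 the corresponding ratios were 1.12, 0.838 and 1.23, with intervals that included 1. Marcks at P21 was 154 CPM in fibrous and 82.2 in protoplasmic astrocytes, and Dpysl3 52.9 and 20.7 CPM, the fibrous value of Dpysl3 resting on 12 UMIs.

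In the oligodendrocyte lineage, Dpysl2 was higher at P21 than at P8, unlike the other members. The class stood at 387 CPM of Dpysl2 at P4, 322 at P8 and 403 at P21, a log2 ratio of P21 to P8 of 0.32 (0.12 to 0.53). The other 7 members were at least 2-fold lower at P21 than at P8, where 20% of all genes were. The makeup of the class changed at the same time: precursors (OPC) were 76.2% of it at P8 and 20.9% at P21, and myelinating oligodendrocytes 0.699% and 61.1%. Weighting alike the 2 subtypes with at least 10 nuclei at both stages, Marcks had a ratio of −0.37 in place of −1.63. The ratios were then −1.52 for Gap43, −1.05 for Dpysl5, −1.47 for Crmp1 and −1.77 for Basp1. For Dpysl3 and Dpysl4 they were −0.75 and −0.24, and for Dpysl2 0.22. The share of all genes under this weighting is not given here.

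The subtypes of the lineage differed in the members they held at P21. OPC had 184 CPM of Dpysl2, committed oligodendrocytes 671 (600 to 748) and myelinating oligodendrocytes 361. Neurons of the same library had 217 and 209 CPM, so Dpysl2 was above neurons in both later subtypes. At P8 Dpysl2 had stood at 224 CPM (185 to 269) in OPC, which overlapped the P21 interval (138 to 239), and at 509 CPM (417 to 615) in committed oligodendrocytes, which narrowly overlapped that of P21.

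Dpysl4 stood at 76.2 CPM in committed oligodendrocytes at P21, beside 20.03 in OPC and 6.38 in myelinating cells. The excess over myelinating cells was 11.9-fold (5.82-fold to 26.9-fold). Marcks stood at 234 CPM in OPC, 286 in committed and 22.3 in myelinating cells, and was therefore low only in the last of the 3 subtypes. Dpysl3 stood at 160 CPM in OPC, 8.23 in committed (4 UMIs) and 5.10 in myelinating cells. Gap43 was 117 CPM in OPC, 16.5 in committed and 21.1 in myelinating cells, and Basp1 150, 37.1 and 28.7. Of the 3 subtypes, OPC were highest for Gap43, Dpysl3 and Basp1, and the committed cells for Dpysl2 and Dpysl4. The Marcks intervals of OPC (182 to 295) and committed cells (241 to 338) overlapped. The subtypes were described after their values were seen.

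**Figure D5:**
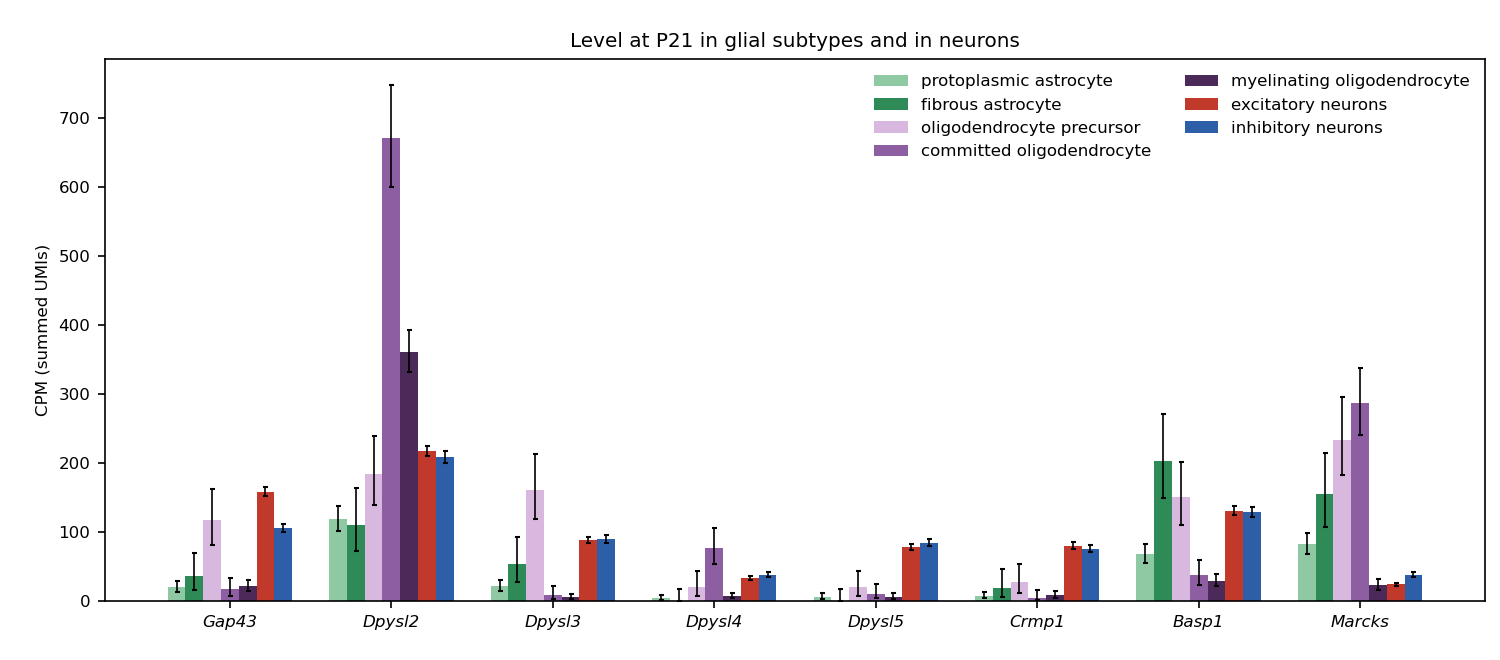
Level of each gene at P21 (CPM, y axis from 0) in 2 astrocyte and 3 oligodendrocyte lineage subtypes and in both neuron classes, with 95% Poisson intervals. Committed oligodendrocytes stand highest for Dpysl2 at 671 CPM and OPC for Dpysl3 at 160 CPM.

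Neuron markers in the whole lineage at P21 stood at 4.08% to 29.8% of the neuron level. Dpysl2 stood at 189% of it, Marcks at 351% and Dpysl4 at 64.0%, all above that range, and Gap43 at 23.9% within it.

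Vascular leptomeningeal cells, the fibroblast-like cells of the meninges and vessels, kept Dpysl3. Their level was 182 (36 nuclei), 187, 114 and 169 CPM over the 4 stages, with no steady direction. The log2 ratio of P21 to P8 was 0.54 (0.11 to 0.99), resting on 155 and 55 UMIs. At P21 this was 191% of the neuron level, while the neuron markers stood at 1.34% to 44.2%. In the same cells 5 of the 7 members with at least 20 CPM were at least 2-fold lower at P21 than at P8, where 8.5% of all genes were, and Dpysl4 lay under that minimum. Gap43 went from 309 CPM at P4 to 147 at P8 and 17.4 at P21, and Marcks from 301 to 278 and 116. Nuclei labelled epithelial, 13 to 40 per library, also had Dpysl3 at P21, at 215 CPM (163 to 277).

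Microglia were few, 13 to 33 nuclei per library. At P21 they held 432 CPM (319 to 573) of Basp1 and 405 CPM (296 to 542) of Marcks, the highest levels of both genes in any class of that library. Basp1 stood at 955 CPM at E19, 689 at P4 and 448 at P8, and Marcks at 885, 537 and 474. Dpysl2 stood at 548, 427, 158 and 243 CPM, whereas Gap43 went from 513 CPM at E19 (29 UMIs) to 9.0 at P21 (1 UMI), and Dpysl4 had 0 or 1 UMI at each stage. The 0 UMIs of Dpysl4 at P21 allow a level of up to 33.2 CPM (exact Poisson bound). The neuron markers in microglia stood at 0% to 39.9% of the neuron level at E19, with Rbfox3 at 0, and at 17.7% to 74.4% at P21. At P4 they stood at 11.4% to 83.9%, and at P8 at 3.75% to 171%. With the counting error of both included, only Marcks lay above every marker at E19 and at P8, and no member did at P4. At P21 Basp1 and Marcks did. The part of neuron RNA in the other microglia values was not tested. Endothelial nuclei, 12 to 22 per library, had 415, 576, 412 and 163 CPM of Marcks, above both neuron classes at each stage.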

How the data were processed

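Per the labels, nuclei were purified through sucrose, captured with 10x Genomics 3′ v3 chemistry and processed with Cell Ranger 3.0.2 against a pre-mRNA reference of mm10. The deposited matrix holds UMI counts per gene and nucleus, not normalised by the authors; per-nucleus totals recomputed from it equalled the deposited ones. The deposited percent of mitochondrial and ribosomal UMIs per nucleus was not used further. Stage, class and subtype were taken from the deposited table of 9724 nuclei. How nuclei were filtered and doublets removed is not given in the sources used here, and neither is the use of strand.

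UMIs were summed per library and class and scaled to CPM. Log2 ratios used 5 CPM added to both values. Exact Poisson intervals were used for CPM, combined bounds for ratios, exact conditional binomial intervals for folds and exact Clopper-Pearson intervals for shares. Shares of all genes were taken over genes that reached 20 CPM in either group compared. Classes with at least 50 nuclei entered ratios between stages, and subtypes with at least 30 entered ratios between stages, ranges and correlations. Smaller groups, such as microglia, endothelial nuclei and IN10 at P4, are set beside other groups as description only. Weighting subtypes alike used those with at least 10 nuclei. The ratio script was tested on simulated data. Of the gene identifiers, 31011 were found in GENCODE M21.

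The members and gene lists were chosen with earlier results of these data known. Named besides the members were the 3 nearest genes of each by correlation, at 50 CPM or more in a profile, and, from each list, the 2 lowest and 2 highest ratios of P21 to P8 in excitatory neurons at 20 CPM or more; other list genes are named where a count was small. A result that this rule names is not reported here. Subtypes named singly were picked with their values known. Python 3.11.15, numpy 2.4.6, scipy 1.17.1 and pandas 2.3.3 were used.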

Additional observations from a re-analysis of the deposited data

Results flagged for a closer look

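Dpysl2 in the oligodendrocyte lineage was higher at P21 than at P8, with a log2 ratio of 0.320, while it was lower in the other 4 of 5 classes compared. Dpysl2 stood at 509 CPM at P8 and 671 at P21 in committed oligodendrocytes, and at 224 and 184 CPM in OPC. The P8 and P21 intervals overlapped in both subtypes, narrowly in committed cells, and such overlap does not show equal levels. Dpysl3 in vascular leptomeningeal cells was higher at P21 than at P8, with a log2 ratio of 0.544, while it was lower in the other 4 of 5 classes. In both cases 1 library stood for each stage, and the difference between the classes was not tested.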

How the results depend on the processing

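The number of members at least 2-fold lower at P21 than at P8 in excitatory neurons, 4 as reported, was 2 with 20 CPM added in place of 5, 2 with median-of-ratios scaling and 2 with nuclei thinned to 2300 UMIs. It was 3 to 5 under the other 5 alternatives, since Gap43, Dpysl5 and Basp1 lie close to the threshold. In inhibitory neurons the count was 4 under all 7 alternatives, and from E19 to P21 it was 6 or 7 in both neuron classes and 8 in astrocytes. No share of all genes is given for these alternatives, so these counts describe the members alone. With no minimum level, 1.37% of all genes in excitatory and 1.47% in inhibitory neurons were at least 2-fold lower at P21 than at P8, and 4.81% and 5.39% at P21 than at E19. Of 1192 single ratios under alternatives, 990 lay within the counting interval and 17 changed sign, none of them a ratio of P21 to P8 or to E19. Among these was Dpysl3 in meningeal cells, whose ratio of P21 to P4 was −0.14 and with median-of-ratios scaling 0.09. Median-of-ratios scaling moved ratios by up to 0.13 in neurons and 0.44 in other classes. With its subtypes weighted alike, the oligodendrocyte lineage had ratios of P21 to P8 of −0.75 for Dpysl3 in place of −2.50 and −0.37 for Marcks in place of −1.63. Vascular leptomeningeal cells have 1 subtype, so this weighting gave no value there. No paired analysis was possible because each stage had 1 library. For the same reason no library could be left out.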
